A study of Mus musculus with 6 samples.

Results

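Mitosis and cytokinesis genes were followed across the cell types of mouse bone marrow and between control mice, tumor-bearing mice and tumor-bearing mice given brequinar (BRQ). The set held 40 genes, chosen by symbol from a fixed list of cyclins, mitotic kinases, spindle, kinetochore, condensin and cytokinesis genes, out of 32285 genes in the count tables, and all 40 were found. The list was drawn up with earlier results of these data known. Single-cell RNA was measured in bone marrow of BALB/c mice, 10 weeks old at harvest, after magnetic bead enrichment for cells with the progenitor receptor c-Kit. The 3 groups were non-tumor-bearing (NTB) mice, mice bearing 4T1 mammary tumors given vehicle (phosphate-buffered saline), and mice bearing 4T1 tumors given BRQ, an inhibitor of the pyrimidine synthesis enzyme DHODH, at 10 mg/kg. Both injections were intraperitoneal and daily for 2 weeks from the time tumors could first be measured. 4T1 is a transplanted BALB/c mammary carcinoma line, so all tumors derived from 1 line, and no NTB mouse was given BRQ. Each of 3 pools held 1 mouse of each group, told apart by antibody hashtags, which gave 3 mice per group and 9 in all.

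Cell division is run by waves of RNA and protein. Cyclins A and B switch on the kinase Cdk1, the kinases Plk1, Aurka and Aurkb build and correct the spindle, condensins and topoisomerase II compact the chromosomes, the spindle checkpoint holds the cell until every kinetochore is attached, and Cdc20 then turns on the anaphase-promoting complex, which destroys the cyclins so that the cell can divide. Most genes of this set are silent in resting cells and are switched on together late in the cell cycle, by the MuvB complex with B-Myb and FoxM1. In bone marrow, granulocyte precursors divide several times and stop before they become mature neutrophils.

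The 3 pools held 13750, 11441 and 14297 barcodes, with median unique molecular identifier (UMI) counts of 7445 to 7996.5 per barcode, and shared 43, 48 and 38 barcode sequences between pairs of pools. After filters, 15966 cells were assigned to 1 mouse each. Cells were clustered without the 40 genes and without 159 other cell division genes, so that clusters were not built from the genes described here. Classes are written with -like because their names rest on marker RNA. Granulocyte-monocyte progenitors (GMPs) were the 3916 cells whose ln(1 + Ms4a3 UMIs per 10000) was over 3. The study also used a limit of 3, but on a scaled expression value, so its GMPs need not be the same cells. Values were compared over mice, and a class counted for a mouse from 20 cells. A mouse is a hashtag within a pool, and p-values measure the spread between these mice.

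Promoters of the set were read first, because genes switched on late in the cell cycle commonly carry 2 kinds of short element, the CHR (cell cycle genes homology region, TTTGAA or TTCGAA) and the CCAAT box. Both were searched on either strand from 250 bases before to 50 bases after the annotated start, in RefSeq sequence of GRCm38.p6, and 35 of the 40 genes had an entry. A CHR stood in 30 of the 35 promoters (85.7%), against 21.7% of the 27025 promoters of all genes. A CCAAT box stood in 30 (85.7%), against 41.1%, and both stood in 27 (77.1%), against 8.61%. Within the last 100 bases of the window, 26 (74.3%) had a CHR, against 6.12%. Nek2, Nusap1, Cenpe, Birc5 and Ccnb1 had no CHR in this window, and Nusap1, Kif2c, Anln, Birc5 and Kif20b had no CCAAT box. The match of letters is a description of the window and not a binding site.

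These 5 promoters are printed, with CHR elements and CCAAT boxes in capitals on whichever strand they stood. Top2a and Ube2c were the genes of the set with the highest levels, Ccnb2 and Cdca3 were the pair called in GMPs, and Kif23 held the largest share of its cluster 4 level in late neutrophil-like cells.
Top2a (GRCm38.p6, chr11:99024140-99024439, minus strand): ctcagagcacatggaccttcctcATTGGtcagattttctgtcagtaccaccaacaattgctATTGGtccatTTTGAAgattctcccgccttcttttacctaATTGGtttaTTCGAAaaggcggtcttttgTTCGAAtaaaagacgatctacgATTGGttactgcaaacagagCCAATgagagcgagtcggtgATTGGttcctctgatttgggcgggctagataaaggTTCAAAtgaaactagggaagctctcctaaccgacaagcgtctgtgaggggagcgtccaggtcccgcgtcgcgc
Ube2c (chr2:164769679-164769978, plus strand): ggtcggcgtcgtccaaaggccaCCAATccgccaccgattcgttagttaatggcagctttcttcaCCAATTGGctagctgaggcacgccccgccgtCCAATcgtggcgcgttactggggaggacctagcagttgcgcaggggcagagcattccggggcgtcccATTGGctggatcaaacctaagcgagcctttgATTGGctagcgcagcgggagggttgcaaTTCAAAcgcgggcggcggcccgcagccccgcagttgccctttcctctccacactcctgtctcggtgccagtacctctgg
Ccnb2 (chr9:70421505-70421804, minus strand): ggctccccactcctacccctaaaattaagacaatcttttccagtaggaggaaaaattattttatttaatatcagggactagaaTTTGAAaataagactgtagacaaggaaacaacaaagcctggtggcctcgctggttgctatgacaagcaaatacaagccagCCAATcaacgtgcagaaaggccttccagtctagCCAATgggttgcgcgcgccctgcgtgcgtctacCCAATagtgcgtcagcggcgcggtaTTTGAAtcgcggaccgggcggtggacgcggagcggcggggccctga
Cdca3 (chr6:124829926-124830225, plus strand): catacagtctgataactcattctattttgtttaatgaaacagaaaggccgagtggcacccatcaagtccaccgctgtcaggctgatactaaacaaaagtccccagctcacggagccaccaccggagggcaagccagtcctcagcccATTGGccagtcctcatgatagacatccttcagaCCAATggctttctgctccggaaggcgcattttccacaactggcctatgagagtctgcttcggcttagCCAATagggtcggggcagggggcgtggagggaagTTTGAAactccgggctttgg
Kif23 (chr9:61946750-61947049, minus strand): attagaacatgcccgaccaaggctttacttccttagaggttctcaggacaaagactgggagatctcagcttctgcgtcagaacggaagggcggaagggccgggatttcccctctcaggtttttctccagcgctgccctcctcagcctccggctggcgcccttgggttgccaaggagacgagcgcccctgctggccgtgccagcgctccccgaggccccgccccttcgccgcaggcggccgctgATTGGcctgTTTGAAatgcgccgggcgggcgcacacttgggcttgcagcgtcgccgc

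Top2a held 4 CHR elements and 6 CCAAT boxes, with its last CHR at -23 from the start. Ube2c held 1 CHR at -29 and 6 CCAAT boxes, of which one pair overlaps. Ccnb2 held 2 CHR elements and 3 CCAAT boxes, Cdca3 held 1 and 3, and Kif23 held 1 of each. In Ccnb2, Cdca3 and Kif23 the last CHR stood just past the annotated start, at +5, +31 and +3. The gene record of Cdca3 begins upstream of the printed window, at chr6:124829547, so its counts and position hold for the start used here.

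The 40 genes together took 779979 UMIs, 0.419% of all UMIs of the assigned cells. Their summed level, in CPM (UMIs of the gene scaled to the same total of UMIs in every class and mouse), was highest in neutrophil-like cluster 4, at 6577 (SD 221, n = 6 mice). In lymphoid progenitor-like cells, counted in 3 mice with 21, 32 and 27 cells, it spread from 4075 to 7313 CPM (mean 5547, SD 1639), so they were given no place in the order. Cluster 4 was led by Camp, Chil3, Ngp and Ltf, genes of neutrophil secondary granules. Erythroid/MEP-like cells, in clusters led by red cell genes such as Car1, Ermap, Klf1 and Hbb-bs, stood at 5370 (SD 342, n = 7), and neutrophil-like cluster 7, led by Ifitm6, Ly6g and Ltf, at 5502 (SD 918, n = 8). Neutrophil-like cluster 6, led by Fcnb and Camp and the earliest of these clusters by its Elane, Mpo and Ms4a3 RNA, stood at 4988 (SD 516, n = 8). Values of monocyte/MDP-like cells (4409, SD 350, n = 9), HSC/MPP-like cells (4034, SD 405, n = 8) and GMPs (3920, SD 248, n = 9) lay within about an SD of their neighbours in this order, as did those of cluster 7 and the erythroid/MEP-like cells.

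Late neutrophil-like cells of cluster 1, led by Retnlg, Il1b and Cxcr2, were at 596 (SD 71.4, n = 8), and B cell-like cells at 516 in the 1 mouse with enough cells. The B cell-like cluster was led by Igkc, Jchain, Ighm, Igha and Mzb1, genes that are high in antibody-secreting plasma cells. After thinning each cell to 3000 UMIs, 80.1% of cluster 4 cells, 51.1% of GMPs, 35.2% of HSC/MPP-like cells and 1.37% of cluster 1 cells held at least 10 UMIs of the 40 genes. None of the 26 thinned B cell-like cells did, which allows a share of up to 11.5%. The limit of 10 is a point on a range and not a border between cell types, since 15.4 to 32.5% of the GMPs of a mouse held 8 to 12 of these UMIs. The intervals and limits given here cover counting error only.

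**Figure D1:**
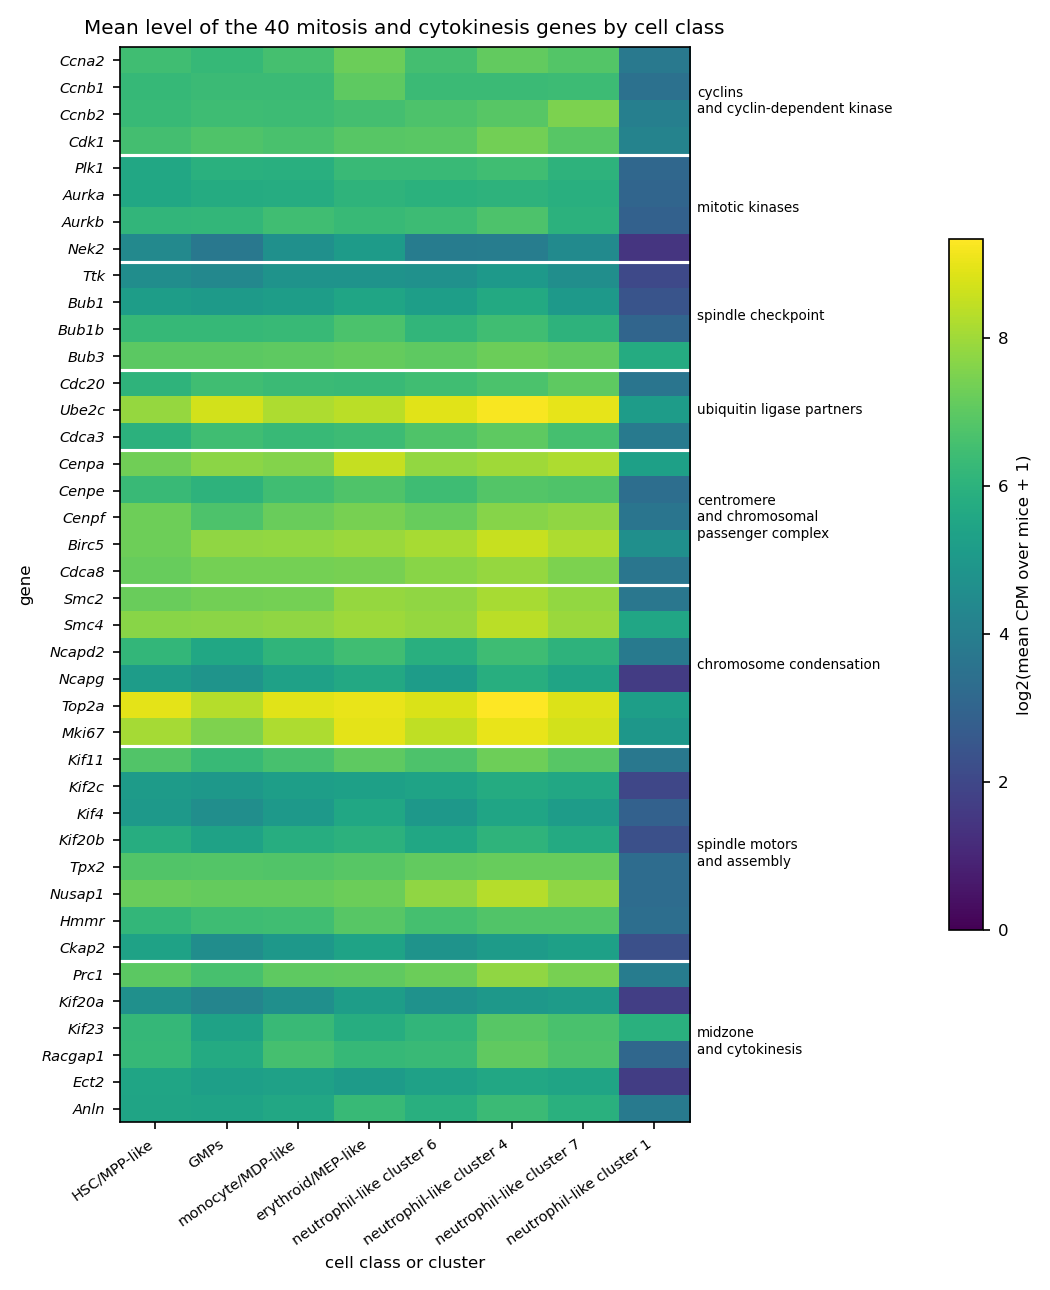
Level of each of the 40 genes (vertical axis, grouped by role) in 8 cell classes or clusters (horizontal axis), as log2 of the mean CPM over mice plus 1. Top2a and Ube2c are the brightest lines, cluster 4 is the brightest column and cluster 1 the darkest, where Bub3 and Kif23 stand out.

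Between genes, mean levels in GMPs ran from 12.4 CPM for Nek2, a centrosome kinase, to 414 CPM for Ube2c, the E2 enzyme of the anaphase-promoting complex, with Top2a, the topoisomerase that untangles sister chromatids, at 310 CPM. These are 3′ tag counts that do not grow with transcript length, so they were not divided by length, and an order between genes also reflects how well each 3′ end is captured. In GMPs, 14.98 to 83.6% of cells held a UMI of a given gene, and 4.36 to 53.1% after thinning to 3000 UMIs. In the B cell-like cells of 1 mouse the thinned shares ran from 0 to 19.2%, the latter for Top2a. A thinned Top2a share below that is not separated from background by these cells, and the value of Top2a sets no floor for other genes. Median depth before thinning was 10829 to 17966 UMIs per GMP and 10753 UMIs per B cell-like cell.

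Among the 8 classes and clusters of the plot of levels by class, 26 of the 40 genes had their highest mean in cluster 4, 11 in erythroid/MEP-like cells and 3 in cluster 7. Cyclins peaked in different classes. Ccna2, the S and G2 phase cyclin, averaged 151 CPM in erythroid/MEP-like cells and 75.9 CPM in GMPs, and Ccnb1 averaged 129 and 81.8 CPM. Ccnb2, the other mitotic cyclin, was highest in cluster 7 at 179 CPM and averaged 93.4 CPM in erythroid/MEP-like cells. Among the kinases, Plk1 averaged 88.3 CPM in cluster 4, 80.1 CPM in erythroid/MEP-like cells and 60.5 CPM in GMPs. Nek2 averaged 34.1 CPM in erythroid/MEP-like cells and 12.4 CPM in GMPs.

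The largest roles in summed level were chromosome condensation and the centromere and passenger group. The 6 condensation genes summed to 1918 CPM in cluster 4, 1644 CPM in erythroid/MEP-like cells, 1217 CPM in HSC/MPP-like cells and 941 CPM in GMPs. Top2a averaged 646, 527, 490 and 310 CPM in these classes, and Mki67, the proliferation marker that coats mitotic chromosomes, averaged 523, 500, 272 and 186 CPM. GMPs were thus the lowest of these classes for Top2a and Mki67. The 5 centromere and passenger genes summed to 1179 CPM in cluster 4, 1056 CPM in erythroid/MEP-like cells, 769 CPM in GMPs and 693 CPM in HSC/MPP-like cells. Cenpa, the centromeric histone, averaged 361 CPM in erythroid/MEP-like cells, 259 CPM in cluster 4 and 210 CPM in GMPs.

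Partners of ubiquitin ligases had another order. Cdc20, Ube2c and Cdca3 summed to 843 CPM in cluster 4, 589 CPM in GMPs, 489 CPM in erythroid/MEP-like cells and 361 CPM in HSC/MPP-like cells. Ube2c alone averaged 414 CPM (SD 44.5) in GMPs and 231 CPM in HSC/MPP-like cells, the reverse of Top2a. The ratio of Ube2c to Top2a was 1.35 in GMPs (SD 0.257, n = 9) and above 1 in 9 of 9 mice. In HSC/MPP-like cells it was 0.474 (SD 0.101, n = 8), in monocyte/MDP-like cells 0.604 (SD 0.0820, n = 9) and in erythroid/MEP-like cells 0.629 (SD 0.117, n = 7), and it was above 1 in none of those mice. Among GMP-like cells taken by cluster rather than by Ms4a3 the ratio was 1.08 and above 1 in 5 of 9 mice, with 1.20, 0.865 and 1.07 in clusters 0, 2 and 3 (7, 3 and 6 of 9 mice), so a ratio above 1 in every mouse held for the Ms4a3-selected cells and not for these. In neutrophil-like clusters 6, 4 and 7 the ratios of 1.07, 0.971 and 1.11 ran across 1 from mouse to mouse. The mouse of pool 3 had the lowest ratio of its group in GMPs (NTB 1.10, vehicle 1.13, BRQ 1.07). It was also lowest in GMP-like cells taken by cluster (0.803, 0.905 and 0.823), and the part of the pool in these ratios was not tested. Classes share their mice and libraries, and these ratios are given without a test.

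Spindle checkpoint genes varied less between classes than the other roles, with sums of 253 CPM in GMPs, 258 CPM in HSC/MPP-like cells, 313 CPM in erythroid/MEP-like cells and 320 CPM in cluster 4. Bub3, which carries Bub1 and BubR1 to kinetochores, made up a large part of these sums, at 124 CPM in GMPs and 149 CPM in cluster 4. Bub1b, which encodes BubR1, averaged 102 CPM in erythroid/MEP-like cells and 75.9 CPM in GMPs. The 6 midzone and cytokinesis genes, which bundle the central spindle and place the cleavage furrow, summed to 287 CPM in GMPs, 385 CPM in HSC/MPP-like cells, 407 CPM in erythroid/MEP-like cells and 627 CPM in cluster 4. Racgap1 and Kif23, the partners of the centralspindlin complex, averaged 51.7 and 40.2 CPM in GMPs, against 132 and 119 CPM in cluster 4.

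From cluster 4 to the late cells of cluster 1, every one of the 40 genes was lower in mean level. Cluster 1 held a median of 8.28% of the level in cluster 4 over the 40 genes. Nusap1, a spindle microtubule binder, was at 2.85%, Mki67 at 5.67% and Top2a at 5.62%. Kif23, the kinesin of the central spindle, was at 50.3% (119 CPM in cluster 4 and 60.0 CPM in cluster 1), and Bub3 was at 35.4% (149 and 52.9 CPM). The next gene, Anln, an actin-binding protein of the cleavage furrow, was at 16.2%. Cells of cluster 1 were shallow, with a median of 1690 UMIs against 7645 in cluster 4.

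Within GMPs, the genes were set against cells rich in RNA of DNA replication genes and cells rich in RNA of other kinetochore and spindle genes, each the top 25% of the GMPs of a mouse. Neither list shares a gene with the 40. In GMPs rich in replication RNA, 37 of the 40 genes averaged below their level in all GMPs, 12 of them in all 9 mice, with a median ratio of 0.700. In GMPs rich in spindle RNA, 38 averaged above it, 15 of them in all 9 mice, with a median ratio of 1.40. Ratios in the replication-rich cells were lowest for Cenpf (0.334) and Ube2c (0.341), followed by Ccnb1, Nusap1 and Cdc20 (0.40, 0.42 and 0.45). For Bub1 (1.17, SD 0.582), Anln (1.07, SD 0.368) and Smc2 (1.01, SD 0.135) the mean lay above 1, but the ratio was below 1 in 5, 4 and 5 of 9 mice, so these genes are not set apart from 1. Top2a was at 0.950. By role, Cdc20, Ube2c and Cdca3 had a median ratio of 0.453 and condensation genes of 0.910. These ratios are a description, because the cells of a mouse share a library.

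**Figure D2:**
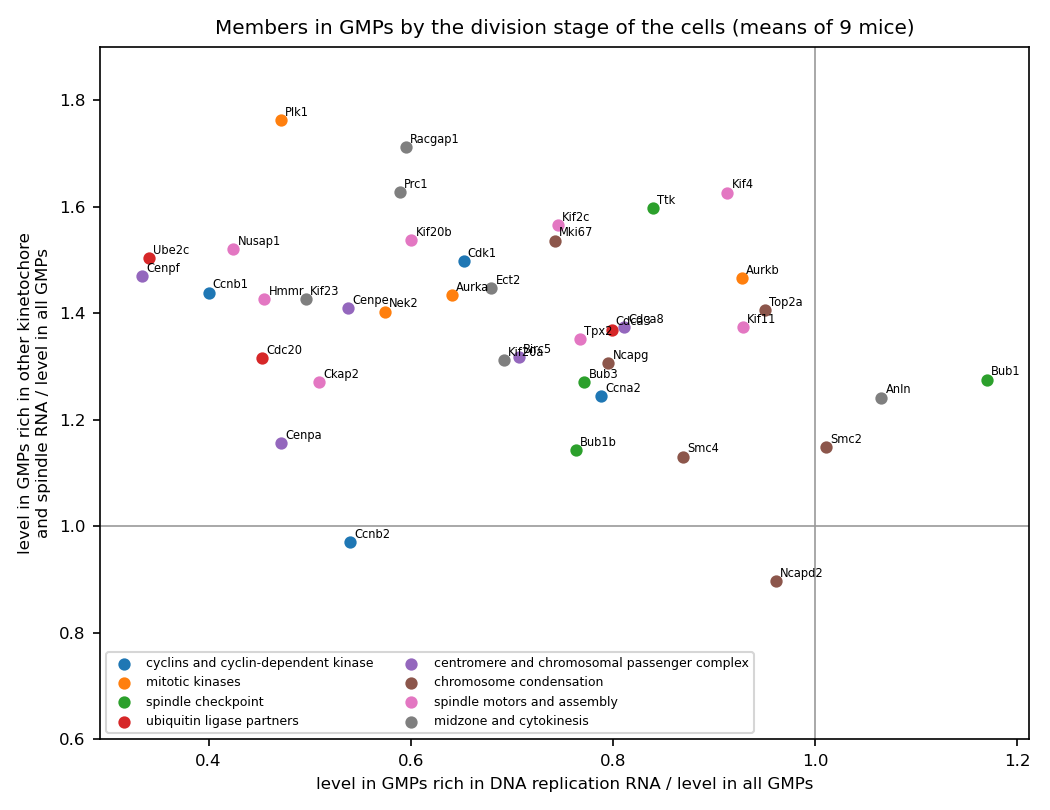
Each point is 1 of the 40 genes, colored by role. The horizontal axis is its level in GMPs rich in DNA replication RNA divided by its level in all GMPs, the vertical axis the same for GMPs rich in other kinetochore and spindle RNA, both as means of 9 mice with lines at 1. Ube2c and Cenpf lie farthest left, Bub1, Anln and Smc2 lie right of 1, and Ccnb2 and Ncapd2 lie below 1 on the vertical axis.

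The first comparison asked whether a tumor moved these genes in the progenitors that feed the granulocyte lineage. In GMPs, the summed level was 3860, 3729 and 3787 CPM in the NTB mice of pools 1, 2 and 3, and 3621, 3989 and 3698 CPM in the vehicle mice. BRQ mice stood at 3998, 4272 and 4323 CPM. The NTB and vehicle values overlapped, and the 3 BRQ values lay above all others at this scaling to total UMIs. With edgeR's TMM factors, which set libraries against each other by most of their genes, the sums were 4200, 3850 and 3771 CPM in NTB mice, 3911, 4154 and 3809 CPM in vehicle mice and 3818, 4044 and 3751 CPM in BRQ mice, and all groups overlapped. Marker RNA in GMPs differed between groups as well. The 10 HSC/MPP markers summed to 60.9 to 81.1 CPM in NTB, 48.1 to 56.9 CPM in vehicle and 110 to 121 CPM in BRQ mice, and the 9 monocyte/MDP markers to 55.1 to 71.5, 54.9 to 68.9 and 99.99 to 152 CPM. The 14 neutrophil markers summed to 47542 to 51004, 34291 to 38051 and 27174 to 38522 CPM. The 6 macrophage markers summed to 272 to 310, 161 to 174 and 63.3 to 194 CPM. The 7 B cell markers summed to 50.1 to 56.6, 27.7 to 33.9 and 34.6 to 46.9 CPM. The part of all these markers in the level of the set was not tested. In GMPs, cells with at least 10 UMIs of the set made up 48.8, 44.5 and 49.1% in NTB mice, 48.3, 56.7 and 50.9% in vehicle mice and 52.7, 53.6 and 55.2% in BRQ mice, all at 3000 UMIs per cell. Shares with at least 20 UMIs were 15.1, 13.3 and 13.5% in NTB mice, 6.67, 10.0 and 8.48% in vehicle mice and 16.4, 19.5 and 17.8% in BRQ mice. The vehicle values were the lowest at 20 UMIs but not at 10, so the order of the groups depends on the limit. Median depth before thinning was 10829 to 11581 UMIs in NTB, 14737 to 17966 in vehicle and 12169 to 15795 in BRQ mice, and its part in these shares was not tested.

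**Figure D3:**
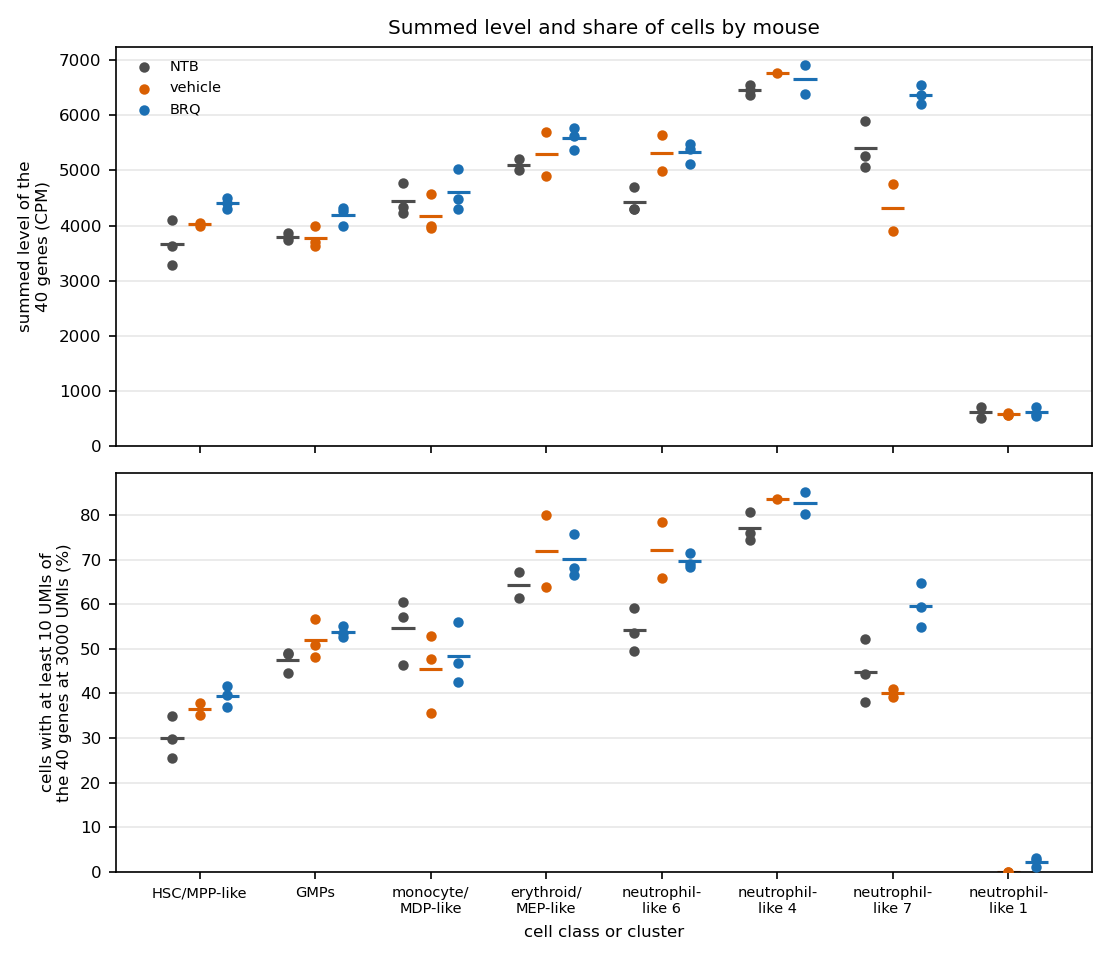
Summed level of the 40 genes in CPM (upper plot) and share of cells with at least 10 UMIs of the set at 3000 UMIs per cell (lower plot) by cell class. Points are mice, colored by group, and lines are group means. In GMPs the 3 BRQ mice lie at 3998 CPM or above, scaled to total UMIs, and cluster 1 lies at 705 CPM or below in every mouse. NTB mice have no point for cluster 1 in the lower plot because under 20 of their cells reached 3000 UMIs.

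For gene-by-gene comparisons, counts were summed per mouse and tested with edgeR's quasi-likelihood test over all genes, with Benjamini-Hochberg adjustment and a limit of 0.05 on the adjusted p. Levels per mouse in these comparisons are CPM scaled by edgeR's TMM factors, and changes are log2 fold changes with their standard error (SE). Between vehicle and NTB GMPs, edgeR called 0 of the 40 genes, when 11.3% of all 10331 tested genes were called. At an unadjusted p under 0.05 the count was 5, when 25.7% of all genes passed, and DESeq2 called 0, when it called 8.84% of all genes. With the pool as a block, 3 were called, Ccnb1 (0.36, adjusted p = 0.0093) and Cdca3 (0.30, adjusted p = 0.0212) higher and Nusap1 (-0.29, adjusted p = 0.0405) lower in vehicle mice, when 16.4% of all genes were called in that fit. Taking GMP-like clusters in place of the Ms4a3 limit gave 7 calls, all higher, when 13.7% of all genes were called higher, and an Ms4a3 limit of 2.5 gave 3, when 12.2% were. The median change without the block was -0.02 (range -0.33 to 0.31), beside -0.01 over all genes tested. The groups did not overlap for 9 of the 40 genes, 5 higher and 4 lower in vehicle mice, when that held for 28.4% of all genes.

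Among the 12 genes given in full, Ccnb1 moved most from NTB to vehicle GMPs. Ccnb1 stood at 58.9, 79.0 and 72.2 CPM in NTB mice, 80.8, 99.7 and 91.2 CPM in vehicle mice and 75.2, 87.9 and 89.0 CPM in BRQ mice. Every vehicle mouse lay above every NTB mouse, and the change of 0.31 (SE 0.120) had an adjusted p of 0.101 by edgeR. Cenpf, a kinetochore protein, stood at 131, 106 and 107 CPM in NTB mice and 91.9, 99.7 and 95.7 CPM in vehicle mice. The groups of Cenpf did not overlap, and its change of -0.25 (SE 0.106) had an adjusted p of 0.136. Mki67 stood at 207, 191 and 208 CPM in NTB mice and 148, 199 and 188 CPM in vehicle mice, which overlapped (-0.20, SE 0.106, adjusted p = 0.236). Top2a stood at 314, 267 and 334 CPM in NTB mice, 311, 322 and 337 CPM in vehicle mice and 312, 304 and 295 CPM in BRQ mice, with overlap throughout.

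None of the other genes given in full passed the limit between vehicle and NTB GMPs. The value for Plk1 was 0.25 (SE 0.127, adjusted p = 0.225 by edgeR) and for Cdk1 0.27 (SE 0.143, adjusted p = 0.242). For Aurka it was 0.27 (SE 0.146, adjusted p = 0.250) and Birc5, the survivin subunit of the passenger complex, had 0.14 (SE 0.0948, adjusted p = 0.367). Aurkb (0.10), Bub1b (-0.04), Ube2c (-0.05) and Cdc20 (-0.06) had adjusted p of 0.652 to 0.877, and so missed it by more. Plk1, Aurka, Aurkb and Nek2, grouped as mitotic kinases, all had positive changes and midzone genes had 5 of 6 negative, with role medians of 0.17 and -0.09, which are given as counts without a test. With cells thinned to 3000 UMIs, 2 of the 4 kinases and 3 of the 6 midzone genes had positive changes.

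With BRQ, the second comparison, 2 of the 40 genes were called in GMPs against vehicle, when 13.4% of all genes were called. Cdca3, a partner of an SCF ubiquitin ligase that helps cells enter mitosis, stood at 96.8, 110 and 96.7 CPM in vehicle mice and 78.3, 88.4 and 77.0 CPM in BRQ mice. NTB mice stood at 76.3, 84.7 and 82.8 CPM, so that Cdca3 in every vehicle mouse lay above all others. Cdca3 fell by 0.30 on the log2 scale (SE 0.0855, adjusted p = 0.0212 by edgeR). Ccnb2 stood at 76.5, 82.1 and 70.5 CPM in vehicle mice, 90.1, 96.4 and 89.3 CPM in BRQ mice and 90.5, 99.1 and 71.7 CPM in NTB mice. Its BRQ values lay above all vehicle values, and it rose by 0.28 (SE 0.0943, adjusted p = 0.0483).

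Neither call held under every setting. DESeq2 called Cdca3 (adjusted p = 0.0482) and not Ccnb2 (adjusted p = 0.0923), and thinning every cell to 3000 UMIs left neither (adjusted p = 0.298 for Cdca3 and 0.195 for Ccnb2), when 5.73% of all genes were called. Leaving out the vehicle mouse of pool 1 or 2 or the BRQ mouse of pool 1 left 0 calls, when 6.98, 9.06 and 9.72% of all genes were called. With the pool as a block, 7 genes were called, 4 higher in BRQ (Ect2, Cenpe, Cenpa and Ccnb2) and 3 lower (Ube2c, Cdca3 and Aurkb), named here after their values were seen, when 20.4% of all genes were called in that fit. Scaling to total UMIs gave 12 calls, all higher in BRQ, when 19.2% of all genes were called higher. With TMM factors 1 gene of the set was called higher. The scaling moved the median of the 40 genes from 0.02 to 0.22 and that of all genes tested from 0.00 to 0.20. Under that scaling Cdca3 changed by -0.11 (adjusted p = 0.427). Between BRQ and vehicle GMPs the groups did not overlap for 10 genes, 6 higher and 4 lower, when that held for 30.7% of all genes.

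Values of Ube2c in GMPs were 524, 471 and 368 CPM in NTB mice, 457, 473 and 380 CPM in vehicle mice and 365, 404 and 315 CPM in BRQ mice. The ranges overlapped, and each BRQ mouse lay below the vehicle mouse of its own pool. The change against vehicle was -0.27 (SE 0.113, adjusted p = 0.122 by edgeR). For Aurkb, the kinase of the passenger complex, BRQ mice stood at 60.6, 70.7 and 64.7 CPM and vehicle mice at 80.1, 77.1 and 77.3 CPM, without overlap (-0.27, SE 0.0924, adjusted p = 0.0581). Cenpa had 233, 243 and 210 CPM in BRQ mice and 199, 201 and 177 CPM in vehicle mice, also without overlap (0.25, adjusted p = 0.0526). Of the rest given in full, Bub1b (0.15), Cenpf (0.12), Aurka (0.04), Mki67 (0.02), Birc5 (-0.07), Ccnb1 (-0.07), Top2a (-0.09), Cdc20 (-0.09), Plk1 (-0.15) and Cdk1 (-0.16) had adjusted p of 0.278 to 0.940. All 6 midzone and cytokinesis genes had positive changes, with a median of 0.19, and Cdc20, Ube2c and Cdca3 all had negative ones, with a median of -0.27. Scaled to total UMIs, the 6 stayed positive, while Cdc20 turned to 0.10 and Ube2c and Cdca3 stood at -0.08 and -0.11. At that scaling 36 of the 40 genes were positive, against 24 with TMM factors. Staying positive there therefore does not set the 6 genes apart.

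Between BRQ and NTB GMPs, edgeR called 0 of the 40 genes, when 6.01% of all genes were called. At an unadjusted p under 0.05 the count was 5, when 20.9% of all genes passed, and DESeq2 called 0, when it called 5.27% of all genes. The median change was 0.07 (range -0.32 to 0.31). Ube2c had the lowest value (-0.32, SE 0.116, adjusted p = 0.106) and Aurka the highest of those given in full (0.31, SE 0.140, adjusted p = 0.205). With the pool as a block both were called, at adjusted p of 0.0013 for Ube2c and 0.0453 for Aurka, when 11.8% of all genes were. Scaling to total UMIs called 8 genes, all higher in BRQ, when 10.7% of all genes were called higher. GMP-like clusters gave 6 and the Ms4a3 limit of 2.5 gave 2, all higher, when 7.37 and 7.72% of all genes were called higher. GMPs came from different clusters in the groups, since cluster 2 held 1.14 to 9.04% of them in NTB mice, 14.8 to 19.0% in vehicle mice and 23.9 to 62.2% in BRQ mice.

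**Figure D4:**
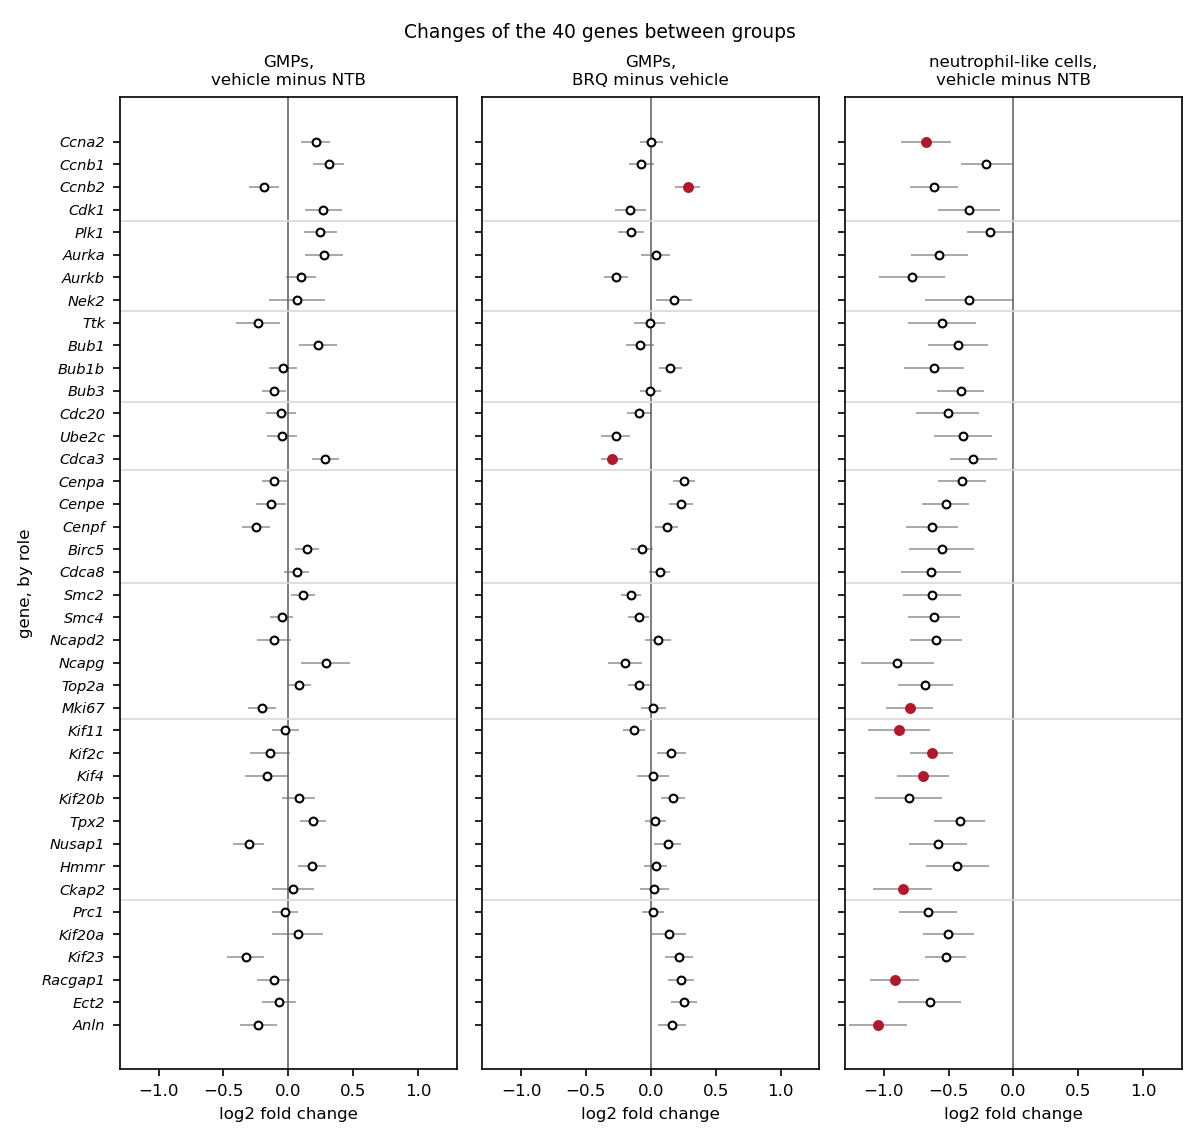
Log2 fold change of each of the 40 genes (vertical axis, grouped by role) in GMPs for vehicle minus NTB and BRQ minus vehicle, and in neutrophil-like cells for vehicle minus NTB. Points are estimates of edgeR with bars of 1 SE, filled red where the adjusted p is under 0.05. GMP values scatter around 0 within -0.33 and 0.31, while all 40 values of the neutrophil-like cells lie below 0.

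In neutrophil-like cells, all 40 genes had lower estimates in vehicle than in NTB mice, with a median change of -0.60 (range -1.05 to -0.18), beside 0.01 over all 9535 genes tested. The summed level was 5309, 5489 and 5497 CPM in NTB mice, 4677, 3231 and 3234 CPM in vehicle mice and 5153, 5306 and 3992 CPM in BRQ mice. All vehicle mice lay below all NTB mice, and the vehicle mouse of pool 1 was the nearest to them. Of the 40 genes, 8 were called and all were lower, when 9.67% of all genes were called in either direction and 3.65% were called lower. For 25 of the 40 genes the vehicle mice lay below all NTB mice, when that held for 15.4% of all genes. At 3000 UMIs per cell, 66.4, 59.1 and 60.9% of cells held at least 10 UMIs of the set in NTB mice, 57.8, 47.2 and 45.8% in vehicle mice and 63.9, 61.5 and 42.7% in BRQ mice. Those cells averaged 21.7, 23.4 and 23.3 UMIs of the set in NTB mice. In vehicle mice they averaged 19.7, 18.7 and 19.9 UMIs, and with BRQ 21.7, 22.3 and 22.4 UMIs. NTB and vehicle mice did not overlap in either measure at a limit of 10 UMIs. At a limit of 5 UMIs the shares overlapped, with 76.8, 69.7 and 73.9% in NTB mice and 76.0, 55.6 and 52.5% in vehicle mice, and at 20 UMIs they did not (35.2 to 39.9% and 16.7 to 27.1%). These shares are given without a test. Shallower cells are left out of both, and 125, 423 and 976 cells of the NTB mice (of 143, 510 and 1117) but 358, 36 and 118 of the vehicle mice (of 630, 142 and 496) reached 3000 UMIs.

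Anln, the furrow protein, stood at 67.8, 90.1 and 77.5 CPM in NTB mice, 48.3, 32.7 and 28.7 CPM in vehicle mice and 52.4, 61.9 and 41.1 CPM in BRQ mice. No vehicle value reached an NTB value, and Anln fell by 1.05 on the log2 scale (SE 0.224, adjusted p = 0.0149 by edgeR). Racgap1 stood at 115, 107 and 118 CPM in NTB mice, 73.6, 51.1 and 49.4 CPM in vehicle mice and 91.3, 88.2 and 65.6 CPM in BRQ mice. It fell by 0.91 (SE 0.189, adjusted p = 0.0136), and in each pool the BRQ mouse lay between the other mice. Mki67 stood at 420, 466 and 497 CPM in NTB mice, 322, 209 and 256 CPM in vehicle mice and 329, 352 and 254 CPM in BRQ mice, and fell by 0.80 (SE 0.182, adjusted p = 0.0190).

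The motor Kif11, which pushes spindle poles apart, fell by 0.88 (SE 0.237, adjusted p = 0.0372 by edgeR) from 134, 141 and 151 CPM to 103, 55.2 and 62.2 CPM. Ckap2, a microtubule binder, fell by 0.85 (SE 0.226, adjusted p = 0.0356). Kif4, a motor of the chromosome arms and midzone, fell by 0.70 (SE 0.201, adjusted p = 0.0484), Ccna2 by 0.67 (SE 0.192, adjusted p = 0.0459) and Kif2c, a depolymerase at centromeres, by 0.63 (SE 0.166, adjusted p = 0.0353). For all 5, the vehicle mice lay below all NTB mice. Of those given in full, Top2a (-0.68, SE 0.210, adjusted p = 0.0620), Cenpf (-0.63, SE 0.201, adjusted p = 0.0699) and Aurkb (-0.78, SE 0.253, adjusted p = 0.0729) missed the limit by little. Bub1b (-0.61), Aurka (-0.57), Birc5 (-0.55), Cdc20 (-0.51), Ube2c (-0.39), Cdk1 (-0.34), Ccnb1 (-0.21) and Plk1 (-0.18) had adjusted p of 0.121 to 0.597.

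The number of calls moved widely with the mice and the fit. It was 36 without the vehicle mouse of pool 1, 3, 1 and 0 without the NTB mouse of pool 1, 2 and 3, 1 and 0 without the vehicle mouse of pool 2 and 3, and 4 and 13 without the BRQ mouse of pool 1 and 3. With the pool as a block, 26 genes were called lower, when 6.66% of all genes were, and without a filter on low counts 25, when 3.37% were. Over all genes, the share called lower moved too. It was 8.57% without the vehicle mouse of pool 1, 2.23, 0.789 and 0.498% without the NTB mice, 1.40 and 1.08% without the vehicle mouse of pool 2 and 3, and 2.52 and 4.11% without the BRQ mouse of pool 1 and 3. Thinning every cell to 3000 UMIs left 0 calls, when 0.331% of all genes were called lower. With the limits on cells read as UMIs, nearly all tested genes of the set were called, and some in both comparisons with BRQ. Far more of all genes were called in that setting too, and its counts are given at the end. All 40 estimates stayed negative with the block, with DESeq2, which called 8 and 2.66% of all genes lower, and with scaling to total UMIs, which called 6 and 2.88%.

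The make-up of the neutrophil-like cells differed between the groups. Late cluster 1 held 6.29, 7.45 and 4.92% of them in NTB mice, 48.1, 78.2 and 83.3% in vehicle mice and 41.4, 36.3 and 68.2% in BRQ mice. Cluster 4, where the set was highest, held 39.2, 42.5 and 45.9% in NTB mice, 9.05, 7.75 and 2.62% in vehicle mice and 14.6, 13.3 and 2.56% in BRQ mice. Camp, a gene that defines these clusters, also differed between groups inside cluster 6 (26906 to 31650 CPM in NTB, 13840 to 19394 CPM in vehicle and 3095 to 12617 CPM in BRQ mice), so the shares are given as values beside the result and not as a change of cell numbers. Summed over all 14 neutrophil markers, all detected, the class held 327372 to 348815 CPM in NTB, 238765 to 243740 CPM in vehicle and 188238 to 244565 CPM in BRQ mice, while the 8 GMP markers held 6692 to 11876, 11622 to 18979 and 14390 to 14827 CPM. In this order, T/NK markers held 65.7 to 89.1, 44.1 to 53.8 and 97.8 to 108 CPM. Macrophage markers held 105 to 145, 66.2 to 80.5 and 49.3 to 88.8 CPM, and monocyte/MDP markers 18.8 to 38.1, 40.6 to 103 and 44.2 to 90.2 CPM. The part of these markers in the level of the set was not tested.

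Inside clusters 1, 6 and 7, the single clusters that could be tested, edgeR called none of the 40 genes lower in vehicle than in NTB mice, although the summed level of cluster 7 was, at scaling to total UMIs. Of the 8 genes called lower in the class as a whole, 5 had a positive estimate in cluster 6 and 1 in cluster 7, and none of these passed the limit. Cluster 4 had enough cells in 1 vehicle mouse, at 6764 CPM for the set, against 6551, 6374 and 6465 CPM in NTB mice and 6389 and 6922 CPM in BRQ mice. Cluster 1 stood at 512 and 703 CPM in NTB mice, 564, 558 and 600 CPM in vehicle mice and 705, 581 and 544 CPM in BRQ mice, with overlap of all groups. There, 10 of the 40 genes passed the filter on low counts and edgeR called 0 in each comparison, when 1.65, 4.84 and 0% of all genes were called, with 1, 0 and 0 at an unadjusted p under 0.05, when 12.4, 17.7 and 7.34% of all genes passed. DESeq2 was not run on single clusters.

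Cluster 6 stood at 4300, 4692 and 4303 CPM in NTB mice, 4995 and 5636 CPM in the 2 vehicle mice with enough cells and 5118, 5390 and 5474 CPM in BRQ mice, so that NTB mice lay lowest. With TMM factors the vehicle mice (5432 and 6014 CPM) still lay above the NTB mice (4326 to 4889 CPM), while the BRQ mice (4836 to 5152 CPM) overlapped them. Of the 40 genes, 4 were called higher in vehicle than in NTB mice, when 3.35% of all genes were called higher. Ube2c rose by 0.64 (SE 0.130, adjusted p = 0.00293 by edgeR), from 406, 485 and 361 CPM to 592 and 718 CPM. Ccnb1 rose by 0.70 (SE 0.168, adjusted p = 0.0114), Nusap1 by 0.52 (SE 0.136, adjusted p = 0.0200) and Cenpa by 0.49 (SE 0.132, adjusted p = 0.0258). Without the NTB mouse of pool 1, 7 genes were called, and without that of pool 3 none, when 4.51 and 0.884% of all genes were called higher. With hashtags called by the ratio of their counts, 1 was called higher, when 425 of 8040 genes were called in either direction. Without the vehicle mouse of pool 1 or 3, which leaves a lone vehicle mouse assumed to vary like the other groups, 1 and 2 were called, when 0.462 and 2.74% of all genes were called higher.

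BRQ mice had 457, 481 and 450 CPM of Ube2c in cluster 6, below both vehicle mice, and 1 gene, Ube2c, was called lower in BRQ than in vehicle mice (-0.49, SE 0.128, adjusted p = 0.0409), when 0.963% of all genes were called lower. Leaving out either vehicle mouse or any 1 BRQ mouse ended that call. Against NTB mice, BRQ mice had 3 genes called higher, when 3.41% of all genes were called higher. They were Cenpa (0.60, SE 0.116, adjusted p = 0.00161), the spindle assembly factor Tpx2 (0.53, SE 0.121, adjusted p = 0.00716) and Nusap1 (0.41, SE 0.120, adjusted p = 0.0358). Without the NTB mouse of pool 3, 1 was called, when 1.12% of all genes were called higher. With hashtags called by ratio, 0 and 1 were called against vehicle and NTB mice, when 45 and 436 of 8040 genes were.

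Cluster 7 stood at 5905, 5072 and 5260 CPM in NTB mice, 4751 and 3897 CPM in vehicle mice and 6556, 6369 and 6204 CPM in BRQ mice, 3 ranges without overlap. With TMM factors they overlapped, at 5094 to 6254 CPM in NTB mice, 4467 and 5447 CPM in vehicle mice and 5591 to 6476 CPM in BRQ mice. edgeR called 0 genes of the set between vehicle and NTB mice, when 0.211% of all genes were called lower and 1.02% higher, and 0 between BRQ and vehicle mice, when 0.154% were called higher, with 4 at an unadjusted p under 0.05 in each, when 9.95 and 8.22% of all genes passed. In BRQ against NTB mice 4 genes were called higher, when 2.80% of all genes were. Ccnb2 rose by 0.70 (SE 0.175, adjusted p = 0.0153) from 183, 146 and 108 CPM to 193, 205 and 253 CPM. Birc5 rose by 0.68 (SE 0.161, adjusted p = 0.00989), Cenpa by 0.63 (SE 0.154, adjusted p = 0.0124) and Tpx2 by 0.59 (SE 0.169, adjusted p = 0.0397). Without the NTB mouse of pool 2 or 3, 0 were called, and without the BRQ mouse of pool 1, 1 was, when 0.979, 0.527 and 1.24% of all genes were called higher. The border of this cluster mattered more, since its counterpart on a graph of shared neighbours gave 1, 9 and 32 calls of 39 tested genes in the 3 comparisons, all higher, when 1.298, 0.716 and 5.03% of all genes were called higher. Between vehicle and NTB mice the direction turned there, with a median of 0.76 and 33 of 39 estimates positive, against a median of -0.09 and 15 of 40 positive in cluster 7 itself.

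**Figure D5:**
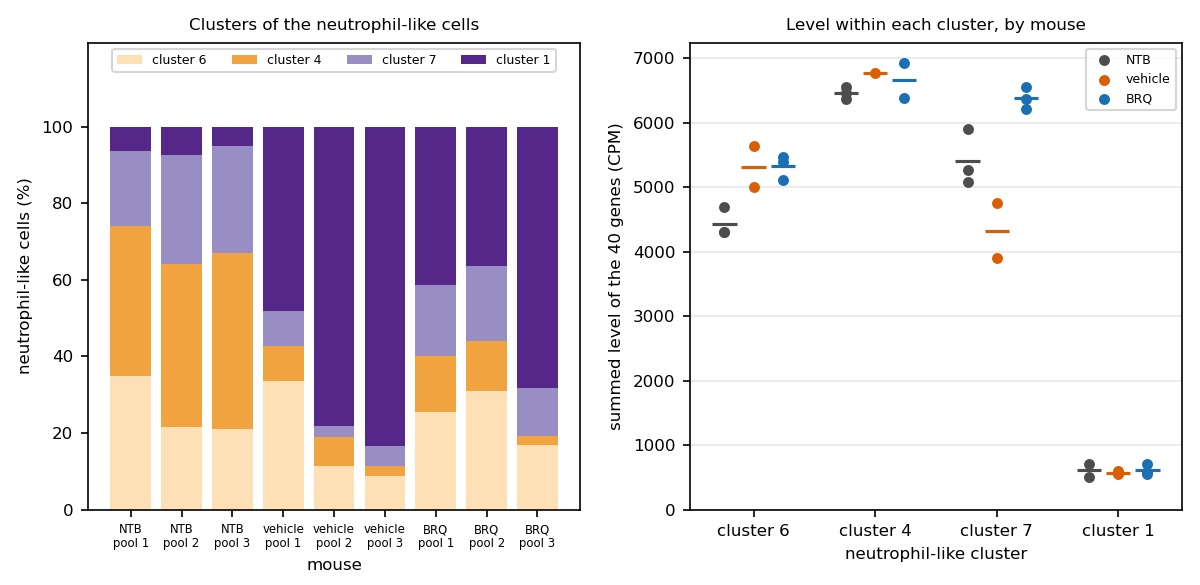
Left, share of the neutrophil-like cells of each mouse in clusters 6, 4, 7 and 1 (stacked bars, percent). Right, summed level of the 40 genes in CPM within each cluster, with points for mice and lines for group means. Cluster 1 holds at most 7.45% of the cells in NTB mice and at least 36.3% in the others, and its level is near 600 CPM in all groups.

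Between BRQ and vehicle neutrophil-like cells taken whole, 37 of the 40 estimates were positive (median 0.26), but edgeR called 0 genes, when 0.0944% of all genes were called. At an unadjusted p under 0.05 the count was 5, when 7.77% of all genes passed, and DESeq2 called 0, when it called 0.178% of all genes. In 2 genes BRQ mice lay above all vehicle mice, when groups did not overlap for 12.1% of all genes. Without the vehicle mouse of pool 1, 8 genes were called higher, when 2.07% of all genes were. Between BRQ and NTB mice 37 estimates were negative (median -0.32), and edgeR called 0 genes, when 2.94% of all genes were called, with 15 at an unadjusted p under 0.05, when 19.4% of all genes passed, and 0 by DESeq2, which called 4.76% of all genes. For 20 of the 40 genes the BRQ mice lay below all NTB mice, when that held for 14.6% of all genes. With the pool as a block, 11 were called lower there, when 3.30% of all genes were, and 8 and 1 were called lower without the vehicle mouse of pool 1 and the BRQ mouse of pool 2, when 3.54 and 0.536% were.

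Whether the tumor-associated change differed between neutrophil-like cells and GMPs was tested directly, in 1 fit over both. The sums of a mouse were paired by a block for the mouse, and cells in both classes were left out of the neutrophil-like sums. The difference was negative for all 40 genes, with a median of -0.55, beside 0.02 over all 10150 genes tested. A single gene, Ncapg, a condensin I subunit, passed the limit (-1.18, SE 0.321, adjusted p = 0.0407 by edgeR), when 4.45% of all genes did, 0.374% with a negative difference. At an unadjusted p under 0.05 there were 23, when 19.1% of all genes passed. Ncapg stood at 59.0, 46.9 and 45.2 CPM in NTB and 36.3, 14.3 and 19.5 CPM in vehicle neutrophil-like cells. The count was 27 without the vehicle mouse of pool 1 and 6 and 12 without the BRQ mouse of pool 2 and 3, when 6.21, 0.452 and 0.981% of all genes were called negative, and 0 without any 1 NTB mouse or the vehicle mouse of pool 2 or 3. For BRQ against vehicle the difference was called for 0 genes of the set and 0% of all genes, with 3 of the set at an unadjusted p under 0.05, when 8.30% of all genes passed, and for 11 of the set without the vehicle mouse of pool 1, all positive, when 4.38% of all genes were called positive. DESeq2 was not run on this difference.

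In HSC/MPP-like cells, the stem cells and earliest progenitors, genes of the set were called higher in tumor-bearing mice. Its summed level was 4102, 3629 and 3289 CPM in NTB mice, 4046 and 3995 CPM in the 2 vehicle mice with enough cells and 4402, 4307 and 4498 CPM in BRQ mice. All BRQ mice lay above all NTB mice. Between vehicle and NTB mice 8 genes were called, all higher, when 10.9% of all genes were called in either direction and 7.38% were called higher. The median change was 0.27, beside -0.01 over all 10891 genes tested, and DESeq2 called 3, when it called 4.37% of all genes higher. Scaling to total UMIs gave 3 and clusters from shared neighbours 5, all higher. In those fits 1077 of 10891 and 312 of 10151 genes were called in either direction.

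Ube2c stood at 203, 178 and 147 CPM in NTB mice, 284 and 252 CPM in vehicle mice and 287, 253 and 256 CPM in BRQ mice. No NTB value reached a tumor-bearing value, and Ube2c rose by 0.65 (SE 0.119, adjusted p = 0.000741 by edgeR) in vehicle mice. Ccnb1 rose by 0.60 (SE 0.149, adjusted p = 0.00900), Ccnb2 by 0.60 (SE 0.139, adjusted p = 0.00579) and Cdk1, the kinase of both, by 0.46 (SE 0.142, adjusted p = 0.0359). Cdca3 rose by 0.46 (SE 0.143, adjusted p = 0.0383), Cenpe, a motor of the kinetochore, by 0.45 (SE 0.132, adjusted p = 0.0270), Cenpa by 0.43 (SE 0.120, adjusted p = 0.0206) and Birc5 by 0.41 (SE 0.120, adjusted p = 0.0268). Cdc20 (0.42, SE 0.144, adjusted p = 0.0607) and Cenpf (0.30, SE 0.114, adjusted p = 0.10) did not pass. For Top2a (-0.04) and Mki67 (-0.04) adjusted p were 0.882 and 0.876, and Plk1, Aurka, Aurkb and Bub1b had 0.182 to 0.483.

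Between BRQ and NTB HSC/MPP-like cells 20 genes were called, all higher, when 17.1% of all genes were called in either direction and 9.77% were called higher. DESeq2 called 12, when it called 5.78% of all genes higher. Clusters from shared neighbours gave 11, all higher, when 478 of 10151 genes were called in either direction. Ttk, a spindle checkpoint kinase, rose by 0.84 (SE 0.194, adjusted p = 0.00351 by edgeR) and Plk1 by 0.68 (SE 0.143, adjusted p = 0.00152). Plk1 stood at 46.5, 33.2 and 32.0 CPM in NTB mice, 44.5 and 50.02 CPM in vehicle mice and 55.8, 55.0 and 60.8 CPM in BRQ mice. Ccnb1 rose by 0.66 (SE 0.129, adjusted p = 0.000888), Ccnb2 by 0.64 (SE 0.121, adjusted p = 0.000571) and Ube2c by 0.62 (SE 0.106, adjusted p = 0.000204). Birc5 stood at 137, 130 and 104 CPM in NTB mice and 183, 188 and 182 CPM in BRQ mice (0.61, SE 0.104, adjusted p = 0.000236). Bub1b rose by 0.58 (SE 0.117, adjusted p = 0.000997) and Bub1, its checkpoint partner, by 0.58 (SE 0.153, adjusted p = 0.0102).

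The other 12 called genes rose by 0.32 to 0.57, among them Cdk1 (0.55), Cdc20 (0.51) and Aurka (0.50). Top2a (0.04) and Mki67 (-0.03) again lay near 0, with adjusted p of 0.827 and 0.860, while Cenpf (0.27) and Aurkb (0.26) had 0.0655 and 0.159. Top2a stood at 601, 448 and 429 CPM in NTB mice and 541, 489 and 480 CPM in BRQ mice, with overlap. Between BRQ and vehicle mice edgeR called 0 genes, when 0.0826% of all genes were called, with 5 at an unadjusted p under 0.05, when 6.60% of all genes passed, and 0 by DESeq2, which called 0.0551% of all genes.

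These calls moved with the cells in the class. Cluster 10, led by Cd34, Cd27 and Sox4, held 17.98 to 19.1% of HSC/MPP-like cells in NTB mice and 38.9 to 45.5% in BRQ mice. In the 2 vehicle mice with enough cells it held 29.4 and 32.1%. Scrublet marked 14.9% of the barcodes of cluster 10 as likely doublets. All 8 GMP markers were detected, at 4988 to 7188 CPM in NTB, 9291 to 10283 CPM in vehicle and 10796 to 12986 CPM in BRQ mice, and the 10 HSC/MPP markers at 1729 to 1825, 1150 to 1173 and 1073 to 1316 CPM. The 10 erythroid/MEP markers summed to 223 to 280, 116 to 117 and 87.6 to 139 CPM and the 6 lymphoid progenitor markers to 178 to 408, 109 to 194 and 88.8 to 156 CPM in the same order of groups, and the part of these markers in the calls was not tested. In cluster 8 on its own, led by Dntt, Hlf and Meis1, 2, 0 and 0 genes were called for vehicle against NTB, BRQ against vehicle and BRQ against NTB, with medians of 0.16, -0.02 and 0.20, when 0.952, 0.0198 and 0.724% of all genes were called. The pair called there, when 0.665% of all genes were called higher, was Ube2c (0.63, adjusted p = 0.0342) and Ccnb2 (0.67, adjusted p = 0.0481). In cluster 10 on its own, 0, 0 and 3 were called (Ccnb1, Birc5 and Cenpa, at 0.98, 0.76 and 0.76, when 0.221% of all genes were called higher), with medians of 0.26, 0.16 and 0.43, when 1.73, 0.0201 and 0.533% of all genes were called in either direction. For vehicle against NTB, 1 and 0 genes were called without the NTB mouse of pool 3 and the vehicle mouse of pool 1, and for BRQ against NTB 8 without the NTB mouse of pool 3, when 3.53, 2.01 and 5.402% of all genes were called higher.

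Monocyte/MDP-like cells, the monocyte and dendritic cell progenitors, and erythroid/MEP-like cells gave 1 call in 6 comparisons. Ect2, a guanine nucleotide exchange factor of the cleavage furrow, stood at 29.5, 33.0 and 32.2 CPM in vehicle monocyte/MDP-like cells and 47.8, 42.9 and 48.3 CPM in BRQ cells. All BRQ mice lay above all vehicle mice, and Ect2 rose by 0.59 (SE 0.140, adjusted p = 0.0146 by edgeR), when 4.91% of all genes were called. NTB mice stood at 47.2, 45.0 and 26.7 CPM and overlapped both groups. Without the vehicle mouse of pool 1 the call was lost, when 1.83% of all genes were called.

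edgeR called 0 genes of the set in monocyte/MDP-like cells between vehicle and NTB mice, when 2.80% of all genes were called, and 0 between BRQ and NTB mice, when 2.75% were, with 2 at an unadjusted p under 0.05 in each, when 17.6 and 13.9% of all genes passed, and 0 by DESeq2, which called 2.22 and 2.31% of all genes. In erythroid/MEP-like cells, with 2 NTB and 2 vehicle mice, it called 0 in each comparison, when 1.22% (vehicle against NTB), 0.146% (BRQ against vehicle) and 0.645% (BRQ against NTB) of all genes were called. There 5, 2 and 3 had an unadjusted p under 0.05, when 10.1, 6.90 and 9.26% of all genes did, DESeq2 called 0 of the set and 0.645, 0.0487 and 0.183% of all genes, and medians were 0.11, 0.03 and 0.13.

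Other cell division genes were counted in 6 lists of 159 genes (kinetochore, other spindle and centrosome, condensin and cohesin, anaphase-promoting complex, cyclins and cell cycle regulators, DNA replication). In GMPs, 4 rose and 4 fell of 158 tested between vehicle and NTB mice, 4 and 8 between BRQ and vehicle mice, and 4 and 7 between BRQ and NTB mice, when 11.3, 13.4 and 6.01% of all genes were called. Cdkn2c, an inhibitor of Cdk4 and Cdk6, fell by 1.43 (SE 0.230) in vehicle mice and rose by 0.96 (SE 0.173) with BRQ against vehicle. Cdkn1a, the p21 inhibitor, rose by 2.00 (SE 0.433, adjusted p = 0.00314 by edgeR) with BRQ against vehicle and by 2.48 (SE 0.740, adjusted p = 0.0475) against NTB. The phosphatase Cdc25b, which activates Cdk1, rose by 0.88 (SE 0.243, adjusted p = 0.0173) with BRQ against vehicle, and Rrm2, a subunit of ribonucleotide reductase, rose by 0.49 (SE 0.104) in vehicle against NTB mice. In neutrophil-like cells 22 of 158 fell and 1 rose in vehicle against NTB mice, when 3.65% of all genes fell, 8 of the 22 among 21 other spindle genes, with Stil, a centriole gene, at -1.08. In HSC/MPP-like cells 16 of 159 rose and 4 fell in BRQ against NTB mice. Of all genes 9.77% rose and 17.1% were called in either direction, so the wider lists rose about as often as all genes. The G1 cyclin Ccnd1 stood at -2.35 (SE 0.416) and Ccne1 at 1.40 (SE 0.285).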

How the data were processed

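The authors deposited raw UMI counts per gene or hashtag and barcode, 1 filtered matrix for each of the 3 pools. The submitters' processing notes name Cell Ranger 6.0.0, Seurat and the build mm10, while the annotation version is not stated there. No column was left unmapped (0 columns). The study scored the cell cycle and removed it by regression before clustering, which was not done here, and its cell-level MAST test was replaced by sums per mouse because cells of 1 mouse are not replicates.

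Barcodes with over 15% mitochondrial counts, with under 500 detected genes or with over 7500 were dropped, limits that the study gives in transcripts. Hashtags were called with HTODemux (Seurat 5.3.0, positive quantile 0.99), and singlets kept. Scrublet (scanpy 1.11.5) marked doublets, left out in an alternative. After scaling to 10000 UMIs per cell, 2000 variable genes without the 40 genes and 159 other division genes gave 30 principal components and 20 neighbours, and Leiden clusters (leidenalg 0.10.2, igraph 0.11.9, resolution 0.8, seed 1). Cluster borders shifted with numerical precision and with the graph, so the graph was computed in double precision with rounded weights, and a shared-neighbour graph was added as an alternative after the data were seen.

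Counts summed per mouse and class (at least 20 cells) were tested in R 4.3.3 with edgeR 4.0.16 (TMM, filterByExpr, two-sided quasi-likelihood test, 1 fit per class over the 3 groups), beside DESeq2 1.42.0. Full statistics are given for 12 fixed genes and for called genes, at most the 8 largest changes per comparison and class, and for at most 3 called genes of the wider lists. The 40 genes, the roles and the wider lists were chosen with earlier results of these data known. Sums and plots used Python 3.11.15 with pandas 2.3.3, scipy 1.17.1, numpy 2.4.6 and matplotlib 3.10.9.

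On data simulated from the vehicle minus NTB comparison, the fit recovered 41% of 1.5-fold and 71% of 2-fold changes in GMPs (10174 genes) and 2% and 36% in neutrophil-like cells (9380 genes). The labels put 1 mouse of each group in each pool, so mice pair by pool. Log2 values centred by group correlated across genes within a pool with a median r of 0.0990 in GMPs (lowest -0.0075, 9 pairs of mice), against -0.0370 between pools (18 pairs), and of 0.143 (lowest -0.151) against -0.105 in neutrophil-like cells. Comparisons left the pool out of the model. Those of the 5 classes taken whole (GMPs, neutrophil-like, HSC/MPP-like, monocyte/MDP-like and erythroid/MEP-like cells) were repeated with it as a blocking factor, while single clusters and the difference between neutrophil-like cells and GMPs were not.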

Additional observations from a re-analysis of the deposited data

Results flagged for a closer look

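The change from NTB to vehicle mice differed between neutrophil-like cells and GMPs for Ncapg by a test of the difference itself, at -1.18 on the log2 scale. Of the 40 genes it was the one that passed, when 4.45% of all genes did. Leaving out any 1 NTB mouse, or the vehicle mouse of pool 2 or 3, ended the call, while leaving out the vehicle mouse of pool 1 gave 27 calls, when 16.6% of all genes were called.

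Barcodes with the Ms4a3 level of GMPs that the hashtag calls gave to no mouse entered no comparison, and they too held RNA of the set. GMPs called negative summed to 3291, 3486 and 3582 CPM of the 40 genes in pools 1, 2 and 3, and those called doublets to 3862, 3995 and 4009 CPM, beside 3773, 4158 and 4081 CPM in the assigned GMPs of the same pools. The negative GMPs were lowest in each pool. They are listed because they lie outside the comparisons, and assigned B cell-like cells, as a low level for comparison, stood at 516 CPM.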

How the results depend on the processing

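Calls rested on 3 or fewer mice per group, and 1 mouse often decided a count. Within a class, no estimate of a called gene turned its direction under an alternative, but of the 8 genes called lower in vehicle neutrophil-like cells, 5 had a positive estimate inside cluster 6, 1 inside cluster 7 and 5 in its shared-neighbour counterpart. Counts are given in the order vehicle against NTB, BRQ against vehicle and BRQ against NTB, each beside its value as reported, and shares in brackets are those of all genes called in the same fit. The cause of each shift was not tested, except that classes with fewer cells, fewer UMIs or fewer genes hold less data by construction. In GMPs (0, 2 and 0 genes), the replicate block of the pool gave 3, 7 and 2 (16.4, 20.4 and 11.8%), scaling to total UMIs 0, 12 and 8 (9.72, 21.7 and 12.8%), GMP-like clusters in place of the Ms4a3 limit 7, 1 and 6 (24.99, 14.1 and 13.9%), an Ms4a3 limit of 2.5 gave 3, 1 and 2 (22.6, 12.99 and 15.7%), and tag ratio calls 1, 2 and 2 (15.6, 12.3 and 8.73%). For BRQ against vehicle in GMPs, DESeq2 gave 1 (9.17%), thinning to 3000 UMIs 0 (5.73%), and GMPs of cluster 0 and of cluster 3 on their own 0 each (7.19 and 7.13%), and no filter on low counts gave 1 for vehicle against NTB (7.58%). In neutrophil-like cells (8, 0 and 0), the replicate block gave 26, 0 and 11 (17.2, 0.336 and 11.4%), no filter 25, 0 and 5 (9.003, 1.29 and 5.90%), limits read as UMIs per cell 37, 4 and 17 of 39 (38.1, 1.35 and 26.9%), thinning 0 for the first (1.55%), shared neighbours 12 for the first (16.7%), and tag ratio calls and shared neighbours 1 each for the last (3.28 and 7.19%). In HSC/MPP-like cells (8, 0 and 20), DESeq2 gave 3, 0 and 12 (5.75, 0.0551 and 9.57%), tag ratio calls 3 and 1 for the first pair (12.6 and 0.150%), total UMIs 3 for the first (9.89%), shared neighbours 5 and 11 (3.07 and 4.71%), cluster 8 alone 2 and 0 (0.952 and 0.724%), and cluster 10 alone 0 and 3 for the first and last (1.73 and 0.533%). Monocyte/MDP-like cells (0, 1 and 0) had 2 for BRQ against vehicle with tag ratio calls (5.58%), and 1 for BRQ against NTB with the replicate block, tag ratio calls, no marked doublets or shared neighbours (4.83, 2.40, 3.09 and 3.29%). Neutrophil-like cluster 6 (4, 1 and 3) had 1, 0 and 1 with tag ratio calls (5.29, 0.560 and 5.42%), and cluster 7 (0, 0 and 4) had 1, 9 and 32 on the shared-neighbour graph (1.77, 0.917 and 6.53%). The difference between neutrophil-like cells and GMPs (1 gene) rose to 18 without the filter on low counts (4.19%). Across the 5 classes taken whole, the pool block moved no other count of calls by over 1.5 times, and it was not fitted to single clusters or to the difference between neutrophil-like cells and GMPs. Shares of GMPs and neutrophil-like cells with at least 10 UMIs of the set, 51.1 and 56.1%, became 79.2 and 67.5% at 5 UMIs and 13.4 and 30.7% at 20 UMIs.

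Leaving out 1 mouse at a time gave 0 to 0, 0 to 3 and 0 to 1 calls in GMPs (4.96 to 15.1, 6.98 to 14.8 and 2.09 to 7.78% of all genes over the same fits), 0 to 36, 0 to 8 and 0 to 8 in neutrophil-like cells (1.41 to 21.2, 0.0204 to 5.66 and 0 to 10.7%), 0 to 12, 0 to 0 and 8 to 23 in HSC/MPP-like cells (2.82 to 11.9, 0.0289 to 0.173 and 9.47 to 17.3%), 0 to 0, 0 to 1 and 0 to 1 in monocyte/MDP-like cells (0.381 to 3.62, 1.83 to 4.74 and 0.571 to 3.39%), 0 in erythroid/MEP-like cells (0.186 to 1.88, 0.0349 to 0.563 and 0 to 1.22%), 0 to 7, 0 to 1 and 1 to 3 in cluster 6 (0.572 to 6.65, 0.231 to 1.92 and 2.36 to 6.81%), 0 to 0, 0 to 1 and 0 to 5 in cluster 7 (0.461 to 1.53, 0.0319 to 0.490 and 0.615 to 3.69%), and 0 to 27 and 0 to 11 for the difference between neutrophil-like cells and GMPs (0.338 to 16.6 and 0 to 7.31%). Where this left a group with 1 mouse, that mouse was assumed to vary like the other groups. With under 2 mice in a group, these could not be fitted: GMPs with limits read as UMIs per cell, erythroid/MEP-like cells with tag ratio calls, without marked doublets or from shared neighbours, cluster 4, and cluster 7 with tag ratio calls.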
